A study of Mus musculus with 8 samples.

Results

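The immunity-related GTPases of the IRG family are interferon-inducible GTPases of mouse cells. Here 9 of them, Irgm1, Irgm2, Igtp, Iigp1, Tgtp1, Tgtp2, Ifi47, Gm4841 and Gm4951, were followed by their gene symbols among the 20057 genes of an RNA sequencing data set of tumor endothelial cells, and all 9 were found. B16-F10 cells, an established melanoma line from C57BL/6 mice, were placed under the skin of male C57BL/6 mice aged 8 weeks, at 250000 cells per mouse. One group of 4 mice (IDs 5N, 6L, 6R and 10N) received agonistic CD40 mAb, clone FGK4.5, and the other group of 4 (5L, 7N, 8N and 9L) received a rat IgG2a isotype control, clone 2A3. Each mouse had 2 injections of 30 µg close to the tumor, on day 13 and day 16, and, per the labels, tumors were taken 1 day after the second injection. The labels give this harvest time for all 8 libraries. The methods of the study also name a later harvest and a correction for harvest day, and no day term was fitted here. About 100000 cells per tumor that lacked CD45, a leukocyte surface protein, and carried CD31, an endothelial one, were sorted, and 10 ng of their RNA gave 1 library per mouse. The sort holds every CD31+ cell without CD45, and no vessel type was separated.

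Interferon gamma binds its receptor on a cell, the kinases Jak1 and Jak2 at the receptor are activated, and the signal reaches genes through the DNA element called GAS (gamma-activated site). The pathway also raises Irf1, and IRF proteins bind a second element, the ISRE (interferon-stimulated response element). IRG genes carry such elements and are classical targets of this pathway, also in cells that are not leukocytes. Their products fall into a pair of classes by the P-loop, the stretch that holds the nucleotide. The GKS proteins have a lysine there and are the effectors, which bind GTP, assemble on the vacuoles of intracellular parasites such as Toxoplasma gondii and break them. In the GMS proteins Irgm1, Irgm2 and Igtp the lysine is a methionine, and they are the regulators, which sit on the cell's own membranes and keep the effectors there inactive.

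The P-loop coding bases are shown because they define these classes. They were read from the GENCODE M21 coding sequences on GRCm38 (mm10), 5′ to 3′ on the coding strand, with the codon that encodes methionine (ATG) or lysine (AAG) in capitals. Each stretch lies inside a coding exon. The 24 bases were the same in all 3 GMS genes, at chr11:48866761-48866784 on the minus strand for Irgm1, chr11:58219695-58219718 on the plus strand for Irgm2 and chr11:58206275-58206298 on the plus strand for Igtp. Tgtp1 (chr11:48987667-48987690, minus strand) and Tgtp2 (chr11:49059534-49059557, minus strand) also shared theirs, and that of Ifi47 lies at chr11:49095648-49095671 on the plus strand.
Irgm1, Irgm2 and Igtp: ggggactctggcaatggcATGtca
Tgtp1 and Tgtp2: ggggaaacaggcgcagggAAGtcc
Ifi47: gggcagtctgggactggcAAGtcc
Iigp1, Gm4841 and Gm4951 also had AAG at this codon, so the members comprised 3 GMS and 6 GKS genes.

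Promoter bases are shown because the members changed in the same direction and their known regulators bind DNA at fixed letters. RefSeq promoter windows on GRCm38.p6, from 250 bases before to 50 after the start of the gene, were held for 6 of the 9 members, those on chromosome 11. Searched on both strands, GAS, as TTCNNNGAA, was found in 4 of these 6 windows (Irgm2, Igtp, Tgtp1 and Tgtp2), against 8.30% of 32851 promoter windows. The ISRE, as GAAA followed by any 2 bases and GAAA again, was found in 5 of 6 (the same 4 and Irgm1), against 3.44% of all windows. In Irgm2, Igtp, Tgtp1 and Tgtp2 both elements lay side by side, GAS before the ISRE with 2 bases between them. This joint arrangement, the letters of GAS, any 2 bases and the letters of the ISRE, was searched for after it had been seen in the members. It occurred in 5 of the 32851 windows (0.0152%), those of these 4 members and of the IRG-like gene Gm12185. The windows of Igtp and Irgm2 were 72.8% identical, those of Tgtp1 and Tgtp2 67.0% and those of Tgtp2 and Gm12185 93.4%. Those of Igtp and Irgm2 were 46.3% to 49.7% identical to those of Tgtp1 and Tgtp2. Because of the close windows among them, the 5 do not count as separate cases, and their descent was not tested. The sequences below run 5′ to 3′ on the gene's strand with matches in capitals. They are the 100 bases just before the start for Irgm2 (chr11:58214877-58214976, plus strand), Igtp (chr11:58199456-58199555, plus strand) and Tgtp2 (chr11:49064213-49064312, minus strand), and 30 bases around the matches for Tgtp1 (chr11:48992310-48992339, minus strand) and Irgm1 (chr11:48871428-48871457, minus strand).
Irgm2: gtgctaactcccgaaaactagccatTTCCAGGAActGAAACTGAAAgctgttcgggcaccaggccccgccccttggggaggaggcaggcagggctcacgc
Igtp: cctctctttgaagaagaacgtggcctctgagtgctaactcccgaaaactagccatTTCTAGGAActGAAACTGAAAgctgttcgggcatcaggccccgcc
Tgtp2: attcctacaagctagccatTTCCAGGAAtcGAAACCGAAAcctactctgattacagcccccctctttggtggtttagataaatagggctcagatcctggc
Tgtp1: gccatTTCCAGGAAtcGAAACTGAAAccta
Irgm1: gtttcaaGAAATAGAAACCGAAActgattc
The Irgm1 run holds 2 ISRE matches that overlap. Starts are those of RefSeq, and for Irgm1, Irgm2 and Tgtp1 GENCODE M21 has other transcripts that begin further upstream, so these stretches lie inside the gene spans given below, that of Irgm1 over an exon. Neither set of letters was in the window of Ifi47. A match is a run of letters and was not tested as a binding site.

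The values are normalized reads, gene read counts divided by the library's size factor. The libraries held between 2971689 (5L) and 64938728 (5N) reads on genes, and the 3 shallowest, 5L, 7N and 8N, were all isotype controls. Endothelial identity was checked on 12 markers, which were all present, with summed levels of 51969 to 73894 normalized reads under agonistic CD40 mAb and 45464 to 62363 under isotype control. Of 8 leukocyte markers 6 could be tested, and 0 had a p below 0.05 before adjustment in limma, edgeR or DESeq2. Their sums overlapped (1465 to 1618 against 1188 to 1676) and consisted mostly of Lcp1, which other cells also express. Ptprc, which encodes CD45, had 1.51 to 21.1 normalized reads in the treated libraries and 0 to 4.98 in the isotype ones. Macrophage markers summed to 372 to 594 against 242 to 549, and 1 of 10, Mrc1, was higher (ratio 1.74). Fibroblast and mural cell markers were also present, with 10 of 10 tested and 0 with a p below 0.05 before adjustment in limma, edgeR or DESeq2. Their sums were above the endothelial sum in all 8 libraries, at 87024 to 166034 normalized reads in the treated libraries and 59775 to 153605 in the isotype ones, and their part in the results below was not tested. They were lowest in 5L and highest in 10N, as the members are below, though 7N and 8N (153605 and 146252) lay above 5N, 6L and 6R. The T and NK cell markers summed to at most 12.03 in any library, with 2 of 11 at 0 in all libraries. The red blood cell markers fell under agonistic CD40 mAb in 5 of 5 cases (sums of 276 to 1267 against 852 to 8760), and the part of these differences in the results below was not tested. Library 5L was the shallowest, with the lowest endothelial sum and the highest melanoma sum (93734 against 35745 to 60850 in the other 7). The melanoma sum was above the endothelial sum in 5L, 6R and 10N and below it in the other libraries. The part of melanoma RNA in the results below was not tested. Because 5L also held the lowest level of every IRG member, member ratios and counts are given with and without it. Sorted bulk RNA cannot tell fewer expressing cells from less RNA per cell.

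All 9 members rose with agonistic CD40 mAb, by 2.12-fold (Irgm1) to 6.03-fold (Gm4841) in the ratio of group means. The threshold was that of the study, which asks for a ratio of 1.5 or more and a p, before adjustment, of 0.05 or less, here from limma. Of 12969 genes tested, 1.28% passed it as higher, and the median log2 fold change of the members was 1.84 against 0.00 over all genes tested. For each member, all 4 treated libraries lay above all 4 isotype libraries, an arrangement seen for 1.09% of all genes tested. With 4 against 4 libraries the exact two-sided permutation test then gives p = 0.0286, the smallest its 70 assignments allow. After Benjamini-Hochberg adjustment over all genes tested, none of the 9 was below 0.05 in limma (adjusted p from 0.245 to 0.864, with 0.0154% of genes below 0.05 in either direction) or in edgeR on the recovered reads (0.131 to 0.501, with 0.0231% of genes below 0.05 and higher), though all 9 were below 0.05 unadjusted in both. DESeq2 on the recovered reads gave 9 of 9 below 0.05 (1.64e-05 to 0.0406), where 0.486% of genes were below 0.05 and higher. The summed level of the 9 members was 10008 ± 2560 normalized reads (SD, n = 4), or 0.130% ± 0.0339 of all normalized reads, against 3330 ± 1447 or 0.0425% ± 0.0178 under isotype control. That is a ratio of 3.01, and of 2.51 without 5L.

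**Figure D1:**
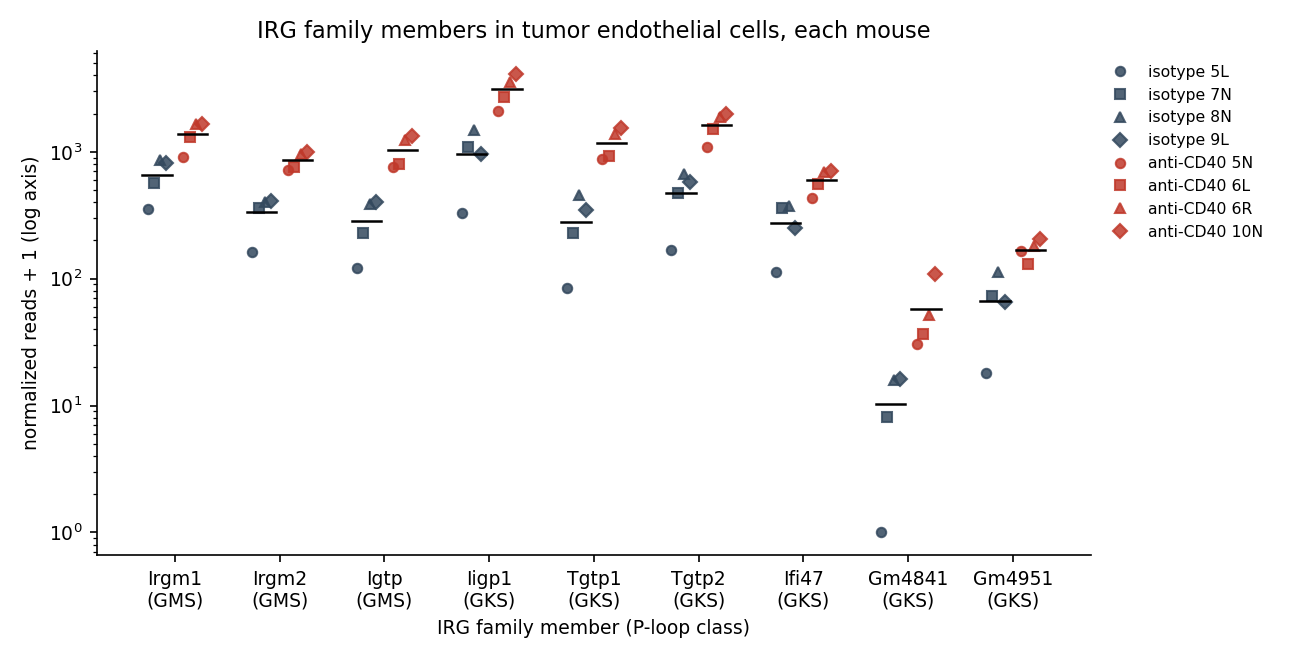
Normalized reads plus 1 (log axis) of each IRG member in each of the 8 mice, with isotype control in dark blue, agonistic CD40 mAb in red and the group mean as a bar. The red points of each member lie above all of its blue points, and the lowest blue point is mouse 5L throughout.

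Among the GMS regulators, Irgm1 (ENSMUSG00000046879.7; chr11:48861968-48871683, minus strand), which in macrophages also serves autophagy, had the highest isotype level. Its values were 913, 1299, 1643 and 1654 normalized reads in the treated mice 5N, 6L, 6R and 10N. They were 352, 571, 864 and 813 in the isotype mice 5L, 7N, 8N and 9L. The groups came close without overlapping, since the lowest treated library was 1.06 times the highest isotype one. Means were 1377 ± 350 against 650 ± 236 (SD, n = 4), a log2 fold change of 1.13 (SE 0.28, limma unadjusted p = 0.00232, adjusted p = 0.51), and without 5L the ratio was 1.84.

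Irgm2 (ENSMUSG00000069874.7; chr11:58199618-58222782, plus strand) had the smallest spread of the family among treated mice relative to its mean (SD 15.7% of the mean). The values were 722, 760, 955 and 987 normalized reads in 5N, 6L, 6R and 10N. The isotype mice 5L, 7N, 8N and 9L had 161, 362, 397 and 410. Apart from 5L, the isotype libraries were close together and well below the treated ones. The ratio was 2.57 and the log2 fold change 1.44 (SE 0.27, limma unadjusted p = 2.8e-04, adjusted p = 0.259), and without 5L the ratio was 2.196.

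Igtp (ENSMUSG00000078853.8; chr11:58199556-58207591, plus strand) changed most among the regulators. It had 754, 803, 1232 and 1337 normalized reads in the treated mice, and 120, 228, 387 and 398 in the isotype mice in the same orders. The treated libraries fell into a lower pair, 5N and 6L, and a higher pair, 6R and 10N. The ratio was 3.64, with a log2 fold change of 1.97 (SE 0.36, limma unadjusted p = 1.93e-04, adjusted p = 0.245), and 3.06 without 5L. An exon of Igtp overlaps the Irgm2 gene model on the same strand, and 12.3% of the 50-base windows of Igtp exons also occur in Irgm2, so some reads of this pair cannot be assigned.

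The effector Iigp1 (ENSMUSG00000054072.12; chr18:60376027-60392634, plus strand), the best studied GKS protein, had the most reads of the family. The treated mice had 2104, 2701, 3546 and 4126 normalized reads, and the isotype mice had 327, 1080, 1495 and 960. The isotype values spread 4.56-fold between 5L and 8N, yet the highest of them stayed below the lowest treated value. Means were 3119 ± 895 and 966 ± 483 (SD, n = 4), a ratio of 3.23 and a log2 fold change of 1.84 (SE 0.40, limma unadjusted p = 8.28e-04, adjusted p = 0.325). The ratio was 2.65 without 5L.

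Tgtp1 (ENSMUSG00000078922.9; chr11:48985327-48994172, minus strand) and Tgtp2 (ENSMUSG00000078921.3; chr11:49057194-49064206, minus strand) are near copies that encode effectors, with 1241 of 1245 coding bases identical (99.7%). For Tgtp1, 89.4% of the 50-base exon windows also occur in Tgtp2, so the division of reads between the copies is uncertain. Tgtp1 had 876, 921, 1380 and 1543 normalized reads in the treated mice and 83.1, 226, 457 and 349 in the isotype mice. Tgtp2 had 1092, 1520, 1886 and 1999 in the treated mice and 169, 469, 667 and 580 in the isotype mice. Both therefore kept the same order of libraries within each group. The ratios were 4.23 and 3.45 (limma unadjusted p = 3.32e-04, adjusted p = 0.277, and unadjusted p = 3.91e-04, adjusted p = 0.283), or 3.43 and 2.84 without 5L. Summed as 1 feature, which needs no division of their shared reads, the pair rose 3.74-fold with a log2 fold change of 2.06 (limma unadjusted p = 3.33e-04). The ratio of the summed pair was 3.06 without 5L.

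Ifi47 (ENSMUSG00000078920.3; chr11:49076587-49096974, plus strand), the Irgd gene, rose least among the effectors. Values were 432, 554, 690 and 706 normalized reads in the treated mice and 112, 357, 373 and 251 in the isotype mice. Here 7N and 8N were near the lowest treated library, and 5L was far below them. The ratio was 2.18 with a log2 fold change of 1.23 (SE 0.34, limma unadjusted p = 0.00404, adjusted p = 0.727), and 1.82 without 5L. An exon of Ifi47 overlaps the Olfr56 gene model on the same strand, with 3.71% of its 50-base windows shared.

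Gm4841 and Gm4951, GKS genes on chromosome 18 near Iigp1, were the members with the lowest levels. Gm4841 (ENSMUSG00000068606.6; chr18:60268305-60273272, minus strand) had 29.6, 35.5, 51.1 and 109 normalized reads in the treated mice, against 0, 7.14, 14.97 and 15.2 in the isotype mice. Its isotype values rest on 0, 3, 11 and 70 reads, and a count of 0 in 5L allows up to 7.33 normalized reads (3 reads), counting error only. The ratio of 6.03 was therefore the least precise of the family (log2 fold change 2.89, SE 0.83, limma unadjusted p = 0.00513, adjusted p = 0.783), and it was 4.52 without 5L. Gm4951 (ENSMUSG00000073555.1; chr18:60212080-60247820, plus strand), whose coding bases are 86.1% identical to those of Iigp1, had 163, 129, 179 and 204 in the treated mice and 17.1, 71.4, 112 and 64.4 in the isotype mice. Its ratio was 2.55 (log2 fold change 1.59, SE 0.46, limma unadjusted p = 0.00586, adjusted p = 0.864), and 2.04 without 5L.

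Without mouse 5L all 9 members still passed the threshold, which 1.24% of genes then passed as higher, and their groups still did not overlap, as for 1.99% of genes with 4 against 3 libraries. Each log2 fold change was then at its lowest of the 8 fits that leave out a mouse, from 0.86 (Irgm1 and Ifi47) to 1.97 (Gm4841). In that fit 5 members, Irgm2, Igtp, Iigp1, Tgtp1 and Tgtp2, had a limma adjusted p below 0.05 (0.0201 to 0.0417), where 0.146% of genes were below 0.05 and higher. No other mouse, when left out, brought a member's adjusted p below 0.05.

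**Figure D2:**
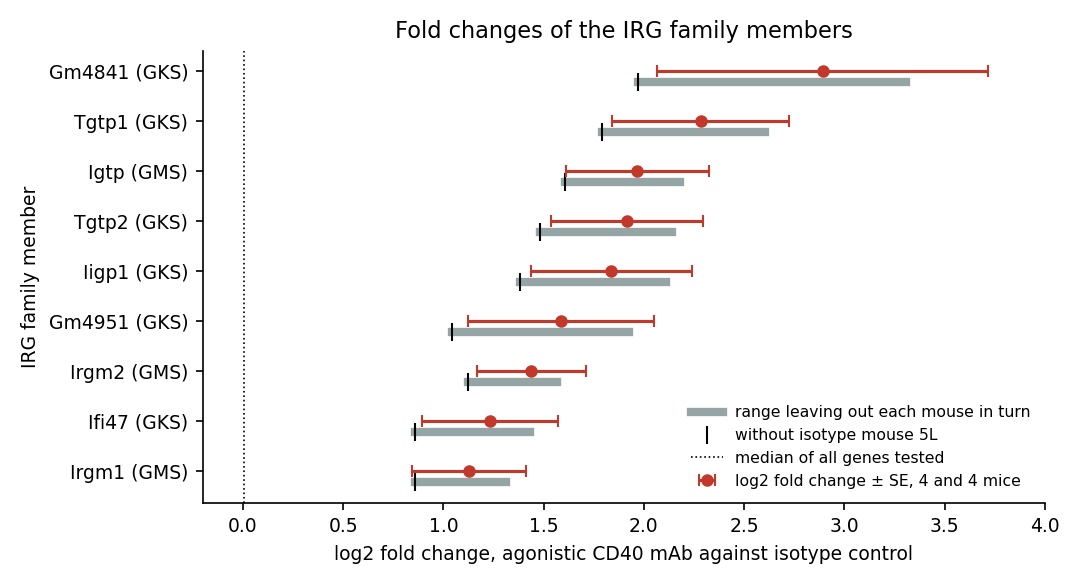
Log2 fold change (agonistic CD40 mAb against isotype control) of each IRG member with its SE in red, and in grey the range when each mouse is left out in turn; black ticks mark the fit without isotype mouse 5L and the dotted line the median of all genes tested. The values run from 1.13 for Irgm1 to 2.89 for Gm4841, and the black tick is at the low end for each member.

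The members followed a common order of mice. In the treated group 10N was highest for 9 of 9 members and 5N lowest for 8, the exception being Gm4951, lowest in 6L. In the isotype group 5L was lowest for 9 of 9, while the highest was 8N for 6 members and 9L for Irgm2, Igtp and Gm4841. The correlation of each member's log2 level with the mean standardized profile of the other members ran from 0.964 (Gm4951 and Ifi47) to 0.996 (Tgtp2) over the 8 libraries. With group means removed it ran from 0.919 (Ifi47) to 0.991 (Tgtp2). These are descriptions over 8 libraries, within each of which the members share depth and cell composition, the fibroblast and mural marker sum included.

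**Figure D3:**
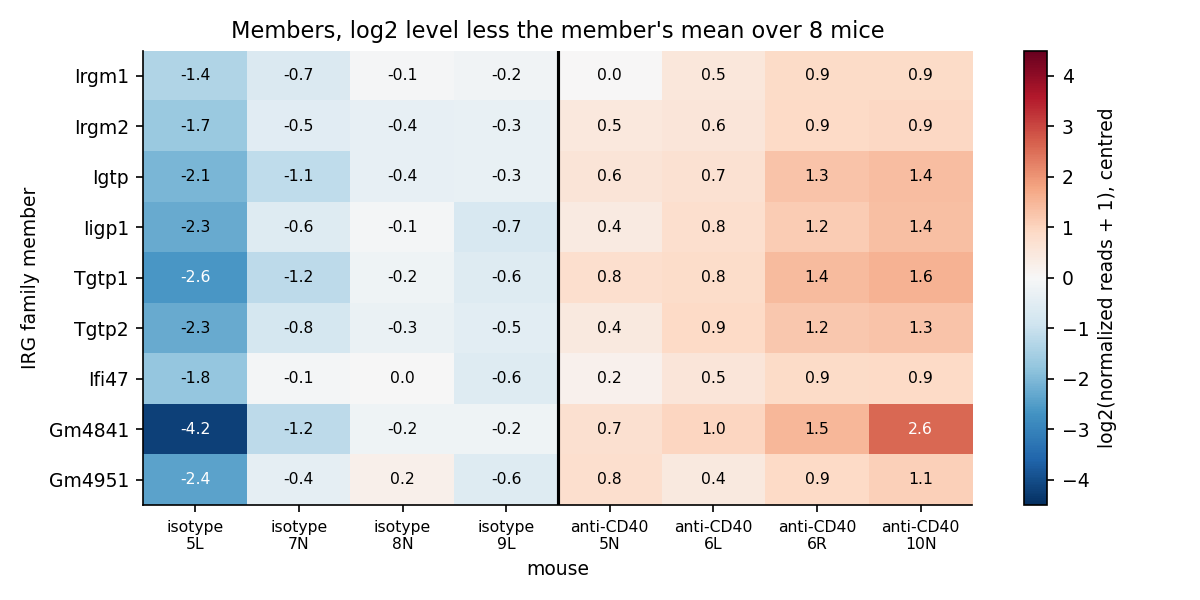
Heat map of log2(normalized reads + 1) of each IRG member less that member's mean over the 8 mice, with isotype mice left of the black line and treated mice right of it. The columns of 5L (lowest) and 10N (highest) stand out for all 9 members.

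Whether members changed by different ratios was asked of the log2 ratio of 2 members within each library, which was compared between groups for all 36 pairs. In 12 pairs the treated and isotype libraries did not overlap (exact permutation p = 0.0286 each), and after adjustment over the 36 pairs the lowest adjusted p was 0.0857. A difference in 1 pair alone could not have passed, whatever its size, because 0.0286 is the smallest p this test can give and the adjustment runs over 36 pairs, so the adjusted values say nothing for or against a difference. In each of the 12 pairs the member with the smaller fold change was Irgm1, Irgm2 or Ifi47. Against Irgm1 the larger fold change was that of Igtp, Iigp1, Tgtp1, Tgtp2 or Gm4841, with the Igtp to Irgm1 difference 0.84 log2 units (SE 0.15) and the Tgtp1 to Irgm1 difference 1.16 (SE 0.26). Against Ifi47 it was that of Iigp1, Tgtp1, Tgtp2 or Gm4841, and against Irgm2 that of Igtp, Tgtp1 or Gm4841. Irgm1 and Ifi47 differed by 0.11 log2 units (SE 0.24; exact permutation p = 0.743), and Igtp and Tgtp2 by 0.05 (SE 0.15; exact permutation p = 0.743).

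The GKS effectors together had 1.97, 2.05, 2.02 and 2.18 times the reads of the GMS regulators in the treated mice 5N, 6L, 6R and 10N. In the isotype mice 5L, 7N, 8N and 9L the ratio was 1.12, 1.90, 1.89 and 1.37. The treated ratios were close to each other and above the isotype ones, of which 7N and 8N came near. Igtp against Irgm2, neighbors of the same class, stood at 1.05, 1.06, 1.29 and 1.35 in the treated mice and at 0.742, 0.632, 0.973 and 0.969 in the isotype mice.

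Per kb of transcript, the scale on which genes can be compared, Iigp1 was highest in the treated mice at 999 ± 287 normalized reads per kb (SD, n = 4). Irgm1 (610 ± 155), Tgtp2 (578 ± 146), Igtp (510 ± 146), Tgtp1 (418 ± 118), Ifi47 (336 ± 72.3) and Irgm2 (247 ± 38.8) followed. The range of each over the 4 mice overlapped that of the next, while within each of the 4 treated mice the genes stood in this same order. The places of Tgtp1 and Tgtp2 in both groups depend on how their shared reads were divided, which is uncertain. Gm4951 (63.7 ± 11.9) lay below Irgm2 without overlap, and Gm4841 (19.8 ± 12.7) below Gm4951 without overlap. Under isotype control Iigp1 (309 ± 155 per kb) and Irgm1 (288 ± 105) were again highest by their means, with Irgm1 above Iigp1 in 5L and 9L. Ifi47 (154 ± 67.8) lay above Igtp (140 ± 66.0) and Tgtp1 (98.8 ± 57.1) with overlap, and Gm4841 was lowest at 3.28 ± 2.55.

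**Figure D4:**
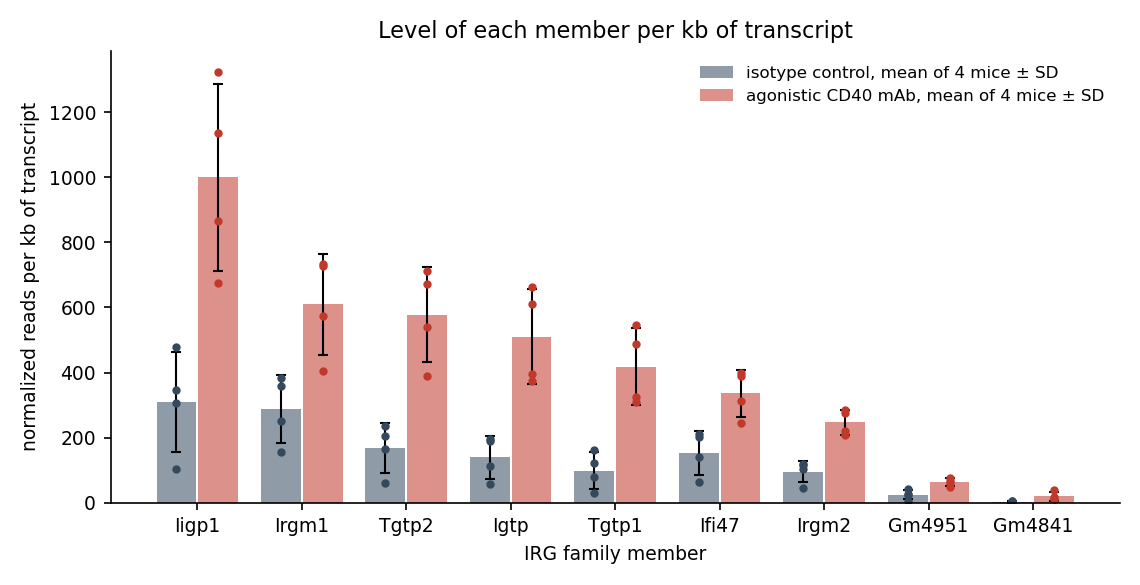
Normalized reads per kb of transcript for each IRG member, as bars from 0 for the mean of 4 mice with SD and points for the mice, in isotype control (dark blue) and agonistic CD40 mAb (red). By the mean Iigp1 is highest in both groups (309 and 999), though Irgm1 lies above it in isotype mice 5L and 9L, and Gm4951 and Gm4841 are lowest.

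Of the interferon gamma pathway that induces IRG genes, transcriptional regulators and an inhibitor rose and the receptors and kinases did not pass the threshold. The ligand Ifng had 0 reads in every library, which allows up to 0.353 normalized reads in the deepest (5N) and 7.33 in the shallowest (5L). The receptor genes Ifngr1 and Ifngr2 had ratios of 1.07 (limma unadjusted p = 0.565) and 0.960 (unadjusted p = 0.698), and the kinase genes Jak1 and Jak2 1.01 (unadjusted p = 0.843) and 1.07 (unadjusted p = 0.482). Of the 19 listed genes tested, 7 were higher and 0 lower, and the median log2 fold change of the 19 was 0.41. Of all genes tested, 1.28% passed as higher. None of the 19 had a limma adjusted p below 0.05, and the lowest was 0.245 (Ciita). Irf1, an ISRE-binding factor, had 784, 941, 1082 and 1330 against 305, 454, 709 and 613, a ratio of 1.99 (limma unadjusted p = 0.00188). The groups did not overlap, and 5L was lowest and 10N highest as for the members.

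Nlrc5, the activator of MHC class I genes, rose 2.92-fold (limma unadjusted p = 7.22e-04), and Ciita, the activator of MHC class II genes, rose from 4.26 ± 3.35 to 47.8 ± 14.4 normalized reads (SD, n = 4, limma unadjusted p = 1.98e-04). Irf8 rose 1.70-fold (limma unadjusted p = 0.00303) and Batf2 3.42-fold (limma unadjusted p = 0.0142). The feedback inhibitor Socs1 rose 2.84-fold (limma unadjusted p = 0.0318), from only 8.35 ± 5.58 normalized reads. Without 5L the count was 6 of 19, since Socs1 no longer passed (limma unadjusted p = 0.0713), and the ratio of Irf1 was 1.75. Stat3, the listed gene with the highest level after Jak1, had a ratio of 1.05 (limma unadjusted p = 0.528). Of the type I interferon receptor list, 0 of 3 tested genes passed the threshold, and 0 had a p below 0.05 before adjustment in limma, edgeR or DESeq2, with ratios of 0.950 for Ifnar1, 1.12 for Ifnar2 and 1.01 for the kinase Tyk2.

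The guanylate-binding proteins, the other large family of interferon gamma induced GTPases, which act with IRG proteins on vacuoles, were higher throughout the genes tested. Of 11 listed genes 10 were tested and all 10 passed as higher. The median of their log2 fold changes was 2.18, and that of the IRG members 1.84. Gbp10 went from 18.3 ± 7.77 to 208 ± 55.2 normalized reads (SD, n = 4) and had a limma adjusted p of 0.00296. The other 9 passed before adjustment only, with adjusted p from 0.245 (Gbp4) to 0.9997 (Gbp9). Gbp2 and Gbp4, which had the highest levels, rose 3.73-fold and 3.44-fold, Gbp6 3.96-fold, Gbp8 6.44-fold, Gbp3 2.59-fold and Gbp7 2.28-fold. Without 5L 9 of the 10 passed, and Gbp9 did not (ratio 1.38). GBP genes lie in clusters of close copies, so reads may be divided between them with error.

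Of the IRG-like genes outside the 9, Gm12250, which encodes Irgb10, rose 3.79-fold (98.9, 146, 264 and 322 normalized reads against 19.6, 76.1, 85.8 and 37.9, limma unadjusted p = 0.00207). Gm12185, whose promoter holds the joint arrangement of GAS and ISRE, rose 3.003-fold (limma unadjusted p = 0.00286), and its exons overlap the Tgtp1 gene model. The other 4 tested did not pass the threshold, among them Irgq, an IRG relative not known to respond to interferon (ratio 1.07, limma unadjusted p = 0.522), and 9930111J21Rik1 (ratio 1.17). Of the other interferon-inducible GTPases 3 of 6 tested were higher, the very large GTPase Gvin1 (ratio 1.85) and its relatives Gm4070 (1.84) and Gm17757 (2.26), between which reads may be divided with error. Mx1 and Mx2, GTPases of the type I interferon response, had ratios of 1.83 (limma unadjusted p = 0.0551) and 1.08. No tested gene of the IRG-like or the other GTPase list had a limma adjusted p below 0.05.

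Among genes through which cells control and use IRG proteins, 1 passed the threshold, which 1.28% of all genes tested passed as higher. The autophagy conjugation genes, whose products load effectors onto vacuoles, gave 0 of 13 past the threshold in either direction, and 0 with a p below 0.05 before adjustment in limma, edgeR or DESeq2. Their median log2 fold change was -0.02, and the genes with the highest levels, Gabarap, Becn1 and Map1lc3b, had ratios of 0.899, 0.985 and 0.999. Among 7 tested genes of the ubiquitin coat that forms on vacuoles, Trim21, a ubiquitin ligase, was higher (122, 155, 167 and 163 normalized reads against 48.9, 69.0, 113 and 113; ratio 1.76, limma unadjusted p = 0.00816). The limma adjusted p of Trim21 was 0.9997. Sqstm1, which encodes the ubiquitin receptor p62, had a ratio of 0.995, and the ligase genes Traf6 and Rbck1 had 0.957 and 1.12.

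**Figure D5:**
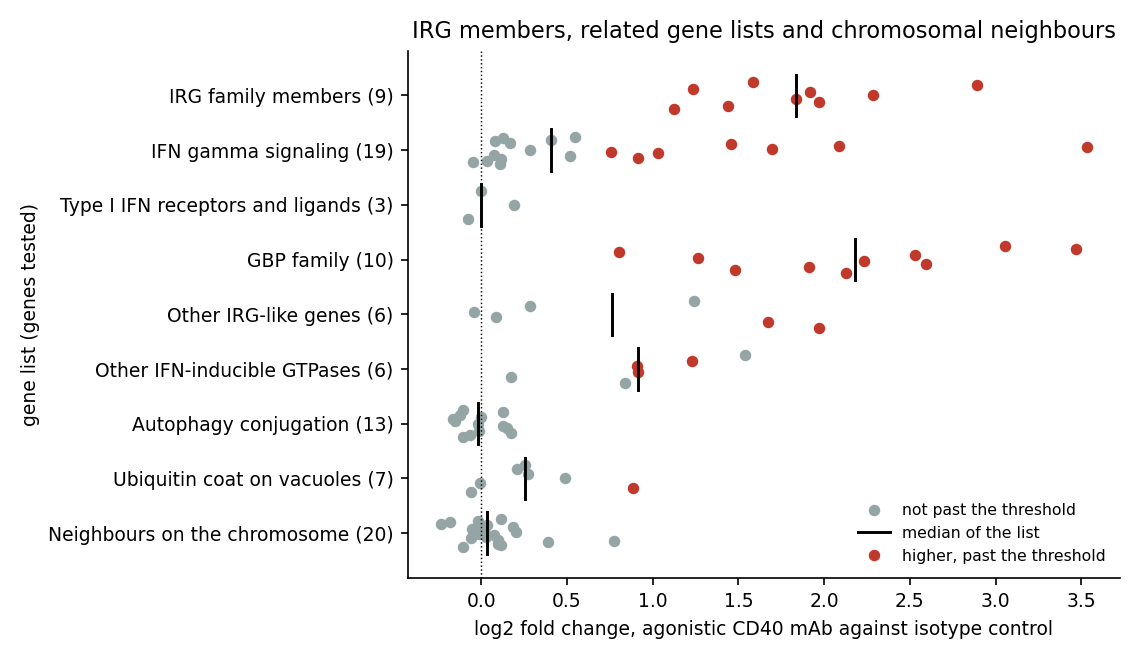
Log2 fold change (agonistic CD40 mAb against isotype control) of the 9 IRG members, of the genes tested in each related list and of the chromosomal neighbors, with genes past the threshold as higher in red, others in grey and the median of each list as a black line. The IRG members and the GBP family are red throughout (medians 1.84 and 2.18), and the autophagy genes and the neighbors are grey throughout.

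The members lie in 4 runs on chromosomes 11 and 18, and the tested genes around them that are not IRG-like did not pass the threshold. Of the 20 nearest tested genes that are not IRG-like, 3 on each side of each run, 0 passed the threshold and 0 had a p below 0.05 before adjustment in limma, edgeR or DESeq2, with a median log2 fold change of 0.03. They ranged from -0.24 (Chsy3) to 0.78 (Olfr56, limma unadjusted p = 0.128). Olfr56 is the gene model that spans Tgtp1, Tgtp2 and Ifi47. Rack1 and Trim41, near Irgm1, had ratios of 0.936 and 1.09, and Dctn4, near Iigp1, had 0.967. Of the IRG-like genes nearby, Gm12250, beside Igtp, and Gm12185, between Irgm1 and Tgtp1, were higher, as given above. F830016B08Rik, the IRG-like gene between Gm4841 and Iigp1, had 83.9, 134, 19.3 and 109 normalized reads in the treated mice against 4.89, 50.0, 62.6 and 41.4. Its groups therefore overlapped through 6R (ratio 2.17, limma unadjusted p = 0.139). Without 6R, 3 IRG-like genes passed the threshold as higher, in place of 2.

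The 9 genes whose levels followed the family most closely, by correlation with its mean profile over 8 libraries, were Gbp6 (r = 0.996), Gbp2, Zbp1, Gbp5, Gbp4, Gbp3, Ciita, Nlrc5 and Irf1 (r = 0.982). With group means removed these correlations ran from 0.950 (Irf1) to 0.989 (Gbp6). Zbp1, a sensor of Z-form nucleic acids and the only gene of these outside the lists above, had means of 366 and 136 normalized reads, a ratio of 2.70 (limma unadjusted p = 0.00139).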

How the data were processed

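RNA of CD45- CD31+ cells from 8 B16-F10 tumors was sequenced by the authors (TruSeq RNA v2, HiSeq). Per the methods of the study, reads were aligned to mm10 with TopHat2, assigned to genes in Partek and scaled with DESeq2; the submitters' processing notes also name Bowtie2 2.2.1, CASAVA 1.8 and Partek 6.6. The deposited signal values are gene read counts divided by a size factor. Of them 99.9% are whole multiples of 1 read within 0.1, so reads were recovered for the count tests. The floor at 1 and the harvest day correction of the methods are not visible in them, and the labels give 1 harvest time for all libraries, so no day term was fitted. Genes with a larger group mean above 10 (12969 of 20057) were fitted in limma 3.58.1 with trend on log2(value + 1), where fold changes of low genes move with the pseudocount, with edgeR 4.0.16 and DESeq2 1.42.0 as alternatives. Ratios are of group means of values. The fits were tested on simulated data. Members and lists were chosen with earlier results of these data known. Named genes were all members and, in each list, at most 6 genes past the threshold, taken by lowest p, plus the 3 of largest mean level, with the ligand, receptors, kinases, Irf1 and Socs1 of the interferon gamma list, the most alike genes and the nearest neighbors. A gene that met this rule is not reported here. Gene models were matched by symbol in GENCODE M21 (96.3% of symbols). P-values measure the spread between 4 mice per group.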

Additional observations from a re-analysis of the deposited data

How the results depend on the processing

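Over 20 alternatives (12 changes of pseudocount, filter, scaling or test, and 8 fits leaving out a mouse) all 180 member values stayed above 0 and past the threshold, and 9 of 9 members passed in each. Members with an adjusted p below 0.05 numbered 0 in the limma fit on 8 libraries, 9 with DESeq2, and 0 to 5 when a mouse was left out. All genes higher numbered 166 and rose to 331 with no filter on low values; leaving out a mouse gave 124 (6L) to 234 (9L). All genes lower numbered 31, with 58 by DESeq2, 47 by edgeR, 13 at a larger group mean above 50, 57 by limma without trend and 93 with no filter. Leaving out a mouse gave 27 (10N) to 123 (5L). The cause was not tested. Pairs of members without overlap numbered 12 to 18 when a mouse was left out. The log2 fold change of Gm4841 depended most on the pseudocount, with 1.73 to 3.78 over the alternatives. Of 300 list counts, 298 stayed within 1.5 times. The others were the leukocyte markers past the threshold, 1 in place of 0 without 6L, and the ubiquitin coat genes higher, 2 in place of 1 without 7N. The motif counts were the same in the 250 bases before the start. No paired analysis was possible because the labels give mouse IDs and no replicate numbers; the replicate numbers used here only name the libraries in accession order.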
